A study of Homo sapiens with 6 samples.

Results

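The keratin genes were measured by 64 probes under 55 gene names, out of 58201 probes under 43317 names on the array. They were chosen by name alone, as every probe whose gene name was KRT followed by a number and at most a letter A to C, without keratin-associated proteins and pseudogenes. RNA came from the breast cancer line BT474, which carries both the estrogen receptor and HER2, on 6 one-color Agilent arrays in 3 groups of 2, lettered A and B. Control cells carried an empty pcDNA3.1 plasmid, BT474-Var1 cells carried pcDNA3.1 with the long variant 1 of the long noncoding RNA NR2F1-AS1, and BT474-Var4 cells carried it with the short variant 4. All were kept in RPMI-1640 with serum, and Control and variant cells both went through antibiotic selection. By the paper's account the variant populations shrank to a few cells, and the remaining cells later formed colonies. Outgrowth from few cells and the variant therefore cannot be told apart. The long variant was in a plasmid with hygromycin resistance and the short one in a plasmid that also encodes eGFP, so plasmid and variant cannot be told apart. The sources used here do not say which of the empty plasmids the Control arrays carried, nor that the arrays of a group came from separate cultures, so p-values measure only the spread between these samples, which may be technical. All arrays lay on 1 slide, the BT474-Var1 arrays in a column of their own, so the column and the long variant cannot be told apart.

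Keratins are the intermediate filament proteins of epithelial cells. Each filament is built from pairs of an acidic type I and a basic type II keratin, and every epithelium uses its own pairs. In the breast, KRT7, KRT8, KRT18 and KRT19 are the keratins of the luminal cells that face the duct, KRT5, KRT14, KRT15 and KRT17 are known from the basal layer, and KRT6 and KRT16 are switched on in injured or activated epithelium. Other keratins belong to the upper layers of skin and mucosa, to the hair shaft or to the sheath around the growing hair.

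Of the 55 keratin genes, 36 were tested, having in 1 group or more a probe well above background on each of its arrays, and 29 were so on all 6 arrays. The tested probes were 41 of 64 (64.1%), against 31858 of 58201 (54.7%) over the array. Among luminal and simple keratins KRT7, KRT8, KRT18 and KRT19 were above background on all arrays, and KRT20, of the gut lining, was so on none. Among basal and activation keratins KRT5, the main type II keratin of basal cells, and KRT6B were on no array above background, and KRT6C was so only on BT474-Var4 B.

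KRT5 read -6.49 and -6.12 in Control, -6.10 and -6.41 in BT474-Var1 and -6.44 and -5.85 in BT474-Var4 cells. These values are log2 of the intensity less the array's 75th percentile, the scale of all levels here, and the dimmest probe above background lay between -4.51 and -3.6 on the 6 arrays. KRT5 therefore has only an upper bound in every group. Folds given as at least were taken with unmarked arrays raised to that dimmest level where they lay lower. Some unmarked probes lay over it, such as KRT17 on BT474-Var4 B (-3.36), so these folds are approximate limits. An adjusted p printed with such a fold is that of the fitted difference, not of the limit. Levels of different probes are not compared, since probes differ in how brightly they bind.

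Of the suprabasal keratins, KRT12 of the cornea, KRT76, KRT77 and KRT79 were above background on no array. The same held for the hair shaft keratins KRT34, KRT36, KRT38 and KRT82, while KRT33B was marked on Control B alone, KRT40 on BT474-Var4 B alone and KRT84 on BT474-Var1 B alone. KRT28, KRT72 and KRT75 of the root sheath and KRT222 were also marked on no array. The array that marked KRT6C and KRT40, BT474-Var4 B, had the lowest share of probes above background of the 6 (47.6%, against 53.1% to 57.5%).

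**Figure D1:**
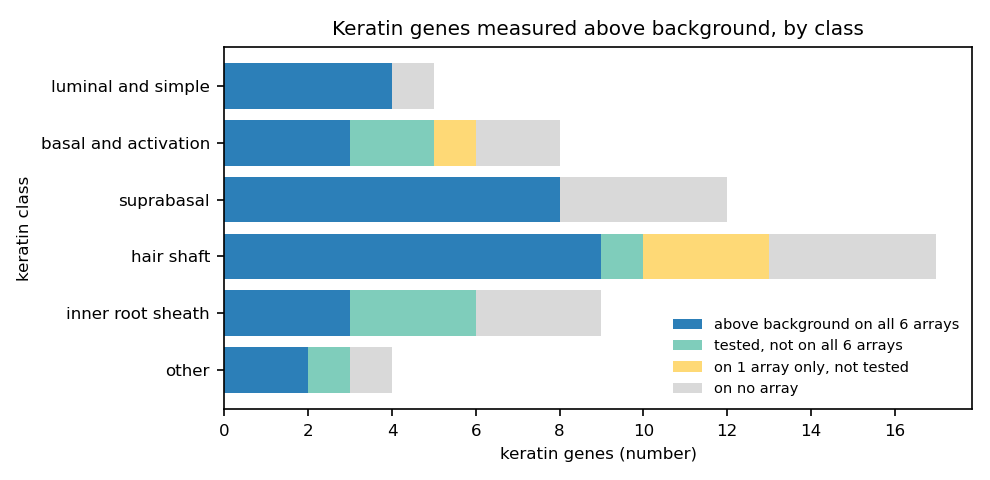
Keratin genes per class (horizontal bars, number of genes) by how many arrays marked at least 1 of their probes well above background. Most luminal, suprabasal and hair shaft genes were marked on all 6 arrays, and 15 of the 55 genes on none.

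The labelled cell type was checked against marker lists. All 8 luminal markers, among them EPCAM, ERBB2 and ESR1, were above background on all 6 arrays. Of 6 basal or myoepithelial markers, CNN1 and ACTA2 were above background on no array and TP63 on 1 array, while CDH3, MYLK and OXTR were on all 6. Of 6 fibroblast markers COL1A2, COL3A1 and LUM were on no array and 2 were on all 6, and of 4 leukocyte markers 2 were on all 6. Of the remaining fibroblast marker, DCN, 1 probe was above background, on the BT474-Var4 arrays alone. It read -1.35 and -1.75 there, against -5.95 and -4.80 in Control and -4.20 and -5.03 in BT474-Var1 cells. The rise by this probe in BT474-Var4 cells was at least 7.11-fold over Control (adjusted p 0.0125). The filter kept this probe through the BT474-Var4 arrays alone, so its p-value is not independent of that choice. The other DCN probe was above background on no array. The summed level of the basal probes above background on all 6 arrays, in multiples of the array's 75th percentile, was 7.40 to 7.68 in Control, 4.67 to 4.81 in BT474-Var1 and 9.84 to 10.4 in BT474-Var4 cells. For the fibroblast list it was 3.07 to 3.09, 3.6 to 3.7 and 5.16 to 5.29, for the leukocyte list 1.40 to 1.44, 1.37 to 1.49 and 1.25 to 1.40, and for the luminal list 1090 to 1100, 1140 to 1170 and 836 to 846. The sums leave out DCN and follow their brightest probes. Of the luminal markers, with ESR1, FOXA1 and ERBB2 by their brightest probe, some were lower in BT474-Var4 cells. These were TFF1 by -1.03 (adjusted p 0.00311), ESR1 by -0.47 (adjusted p 0.0176) and FOXA1 by -0.40 (adjusted p 0.0108). EPCAM gave -0.01, ERBB2 -0.02, CDH1 -0.07, GATA3 -0.13 and GRB7 -0.13 there, none past the test. The basal marker OXTR was higher by 1.57 (adjusted p 0.00293) and the fibroblast marker COL1A1 by 1.03 (adjusted p 0.00293). The basal marker MYLK gave 0.24 by its brighter probe (adjusted p 0.2) and 0.75 by a dimmer one (adjusted p 0.0227). CDH3 gave 0.17 (adjusted p 0.155), and the fibroblast marker PDGFRB went the other way at -0.32 (adjusted p 0.129). In BT474-Var1 cells the basal marker CDH3 was lower by -0.84 (adjusted p 0.00460). Of the luminal markers, by the same probes, EPCAM was lower there by -0.66 (adjusted p 0.00523), FOXA1 by -0.50 (adjusted p 0.00529) and CDH1 by -0.47 (adjusted p 0.00588). ERBB2 was higher by 0.22 (adjusted p 0.0295) and GRB7 by 0.27 (adjusted p 0.04). TFF1 gave 0.18, GATA3 0.17 and ESR1 -0.13, none past the test. The part of these markers in the keratin differences was not tested. The bulk RNA does not separate a change in the share of cells with a keratin from a change per cell.

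In BT474-Var1 cells the luminal keratins KRT19 and, by its 2 brighter probes, KRT8 rose. KRT14 by 1 of its probes, KRT16, KRT2, KRT32, KRT23 and a probe shared by KRT83 with other hair keratins rose as well. So did the inner root sheath keratins KRT71 and, from below background, KRT25 and KRT27. The luminal keratin KRT18, by 1 of its 2 probes, and KRT81, KRT85 and KRT73 fell. Of the 41 tested keratin probes, 12 rose and 4 fell (16, 39.0%, against 34.4% of all tested probes, of which 14.1% rose and 20.3% fell) at an adjusted p under 0.05. At a change of 2-fold or more, 5 rose and 0 fell (12.2%, against 3.94% over the array, 2.78% higher and 1.16% lower). The median difference of the keratin probes was 0.11 and of all tested probes -0.04 (log2). Among the 32 keratin probes above background on all 6 arrays, 12 passed the test (37.5%, against 37.3%) and 1 at 2-fold (3.12%, against 2.49%), so their share called was near that of the array. Of the 5 at 2-fold, KRT14, KRT25, KRT27 and KRT71 had a Control array below background. Without Control A the count of 16 was 6, without Control B 7, without BT474-Var1 A 7 and without BT474-Var1 B 6, and 12 of the 16 calls were lost in at least 1 alternative.

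In BT474-Var4 cells KRT4 and KRT80 rose over 2-fold and KRT1 and KRT24 fell. KRT7, KRT13, KRT14 (1 of its probes), KRT15, KRT16, KRT2, KRT23, KRT32, KRT37 and a probe shared by KRT83 with other hair keratins rose as well. So did 1 probe of 3 named KRT8, which lies close to KRT18, while the brighter KRT8 probes did not pass the test. Here 13 of the 41 probes rose and 2 fell (15, 36.6%, against 24.2% over the array, 9.87% higher and 14.3% lower), and at 2-fold 3 rose and 2 fell (12.2%, against 3.17%, 1.6% higher and 1.57% lower). Of these 5, KRT14 had both Control arrays and KRT24 had BT474-Var4 B below background, so that their 2-fold size rests on fitted values. The median difference was 0.09, against -0.08 over all tested probes. Of the 32 probes above background on all arrays, 13 passed (40.6%, against 25.8%) and 3 at 2-fold (9.38%, against 2.1%). The count of 15 was 3 without Control A, 4 without Control B, 5 without BT474-Var4 A and 3 without BT474-Var4 B, and 12 of the 15 calls were lost in at least 1 alternative. Both variants were compared with the same Control arrays, so their lists are not independent.

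Between the populations themselves, BT474-Var4 against BT474-Var1, 10 probes were higher and 10 lower (20, 48.8%, against 41.2% over the array, 20.4% higher and 20.8% lower), and at 2-fold 2 were higher and 5 lower (17.1%, against 6.86%, 2.27% higher and 4.6% lower). The median difference was 0.06 against -0.03. Of the 32 probes above background on all arrays 16 passed (50%, against 43.3%) and 3 at 2-fold (9.38%, against 4.5%). The count of 20 was 10 without BT474-Var4 A, 8 without BT474-Var4 B, 8 without BT474-Var1 A and 9 without BT474-Var1 B, and 14 of the 20 calls were lost in at least 1 alternative. Over all alternatives run, the calls of KRT19, KRT14, KRT16 and KRT32 in BT474-Var1 cells, of KRT1, KRT4 and KRT80 in BT474-Var4 cells, and of KRT19, KRT1, KRT4, KRT37, KRT71 and KRT80 between the populations were kept in each alternative in which their probe was tested. Of these, KRT14 and KRT71 had entered the test only through groups where they were high.

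**Figure D2:**
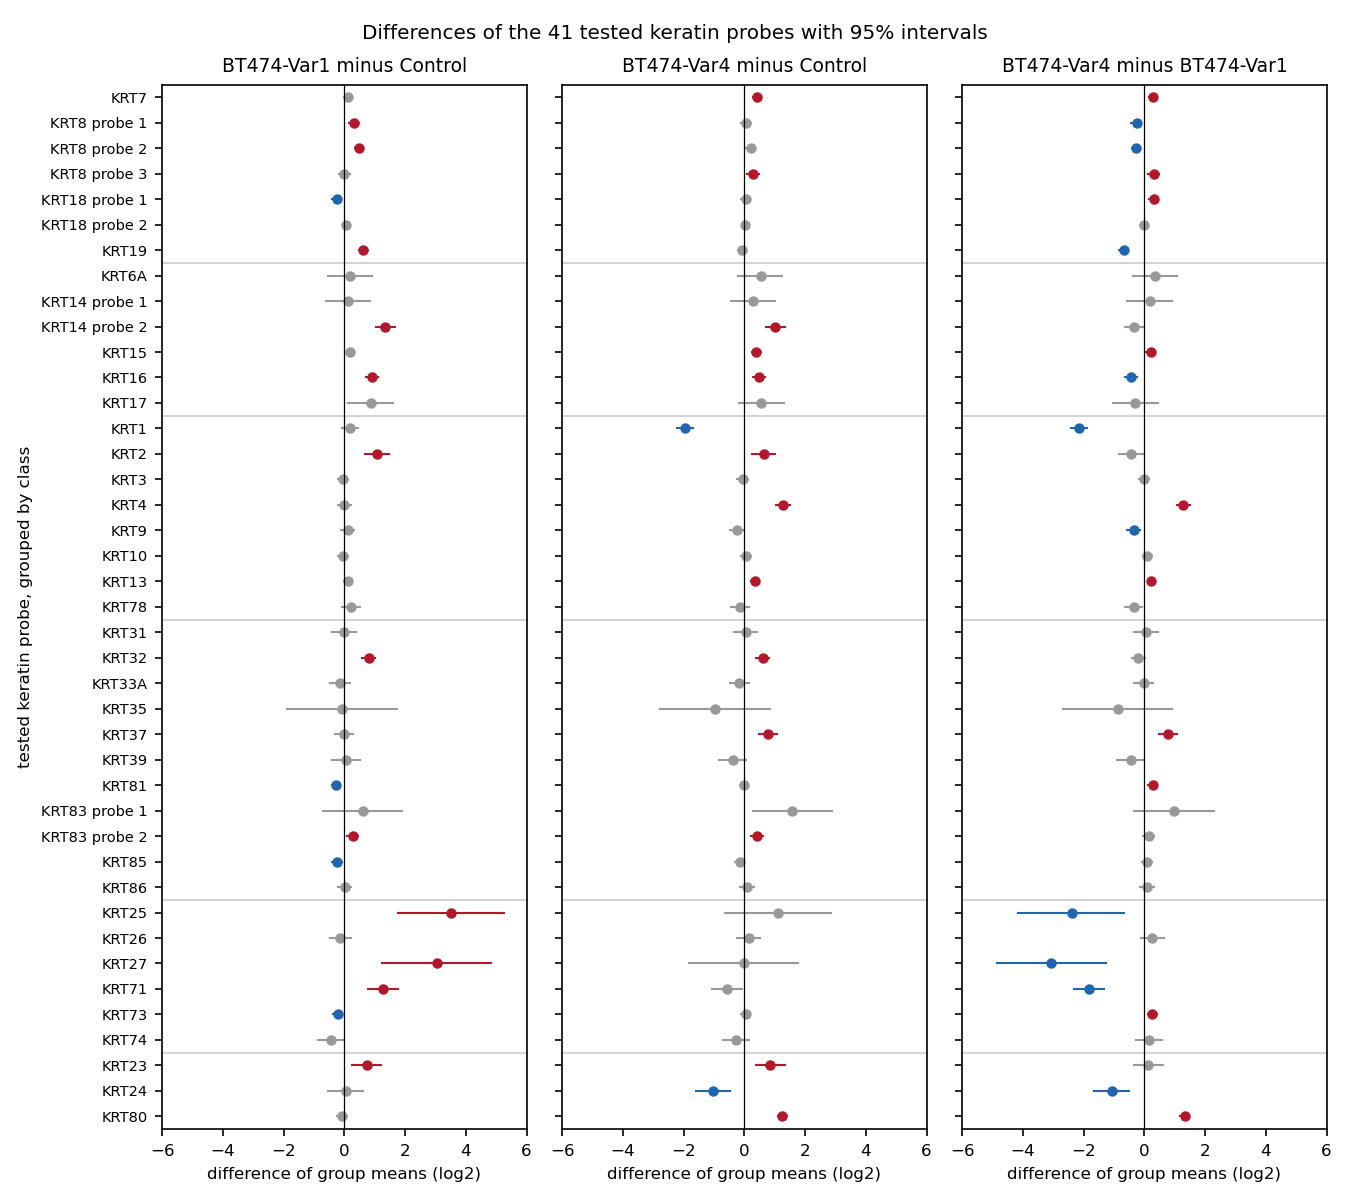
Difference of group means (log2, points) with 95% intervals (bars) for the 41 tested keratin probes in 3 comparisons, in the order luminal, basal, suprabasal, hair shaft, inner root sheath and other. Red and blue mark probes higher or lower at an adjusted p under 0.05 and gray the rest. KRT25, KRT27 and KRT71 lie far right in BT474-Var1, where the fitted values rest on Control arrays at or near background, and KRT1, KRT4 and KRT80 stand apart in BT474-Var4.

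Of the luminal keratins, KRT19 differed most between the populations. KRT19, the smallest keratin, which lacks the tail of the others (probe at chr17:39679918-39679977, hg19, as for all probe positions), read 9.90 and 9.86 in Control, 10.48 and 10.52 in BT474-Var1 and 9.79 and 9.83 in BT474-Var4 cells. Both BT474-Var1 arrays lay above all others, while Control and BT474-Var4 arrays were close. The difference was 0.62 (SE 0.05, 1.54-fold, adjusted p 0.00445) for BT474-Var1 against Control and -0.07 (SE 0.05, adjusted p 0.344) for BT474-Var4. BT474-Var4 cells had 1.62-fold less than BT474-Var1 cells (adjusted p 0.00224).

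KRT7, the type II keratin of gland and duct cells (chr12:52642590-52642649), moved in the other population. KRT7 read 8.60 and 8.57 in Control, 8.71 and 8.68 in BT474-Var1 and 9.0 and 8.98 in BT474-Var4 cells. The groups did not overlap, with BT474-Var4 on top. Against Control the difference was 0.40 in BT474-Var4 (SE 0.05, 1.32-fold, adjusted p 0.0114) and 0.11 in BT474-Var1 (SE 0.05, adjusted p 0.157). Between the populations KRT7 differed 1.22-fold (adjusted p 0.0129).

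KRT8 and KRT18 form the founding pair of simple epithelia and lie side by side on chromosome 12. The array held 3 probes for KRT8 and 2 for KRT18, and they did not all move alike. The sequences of 4 of them are given, 5′ to 3′ and with nothing in capitals, because the calls depend on which stretch each probe reads.
KRT8 probe 2, chr12:53294461-53294995, minus strand: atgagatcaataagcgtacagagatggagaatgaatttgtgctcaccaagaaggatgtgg
KRT8 probe 3, chr12:53343241-53343300, minus strand: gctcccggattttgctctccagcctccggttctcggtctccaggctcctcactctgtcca
KRT18 probe 1, chr12:53345577-53345636, plus strand: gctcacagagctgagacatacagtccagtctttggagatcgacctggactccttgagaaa
KRT18 probe 2, chr12:53346116-53346554, plus strand: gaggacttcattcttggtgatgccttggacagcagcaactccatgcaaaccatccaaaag

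KRT8 probe 1 (chr12:53291026-53291085) and probe 2 both rose in BT474-Var1 cells. Probe 1 read 6.52 and 6.53 in Control, 6.84 and 6.85 in BT474-Var1 and 6.52 and 6.64 in BT474-Var4 cells. Probe 2 read 2.79 and 2.83, then 3.30 and 3.28, then 2.98 and 3.03, in the same order of groups. On both probes the BT474-Var1 arrays were the highest, by 0.32 (SE 0.06, 1.25-fold, adjusted p 0.0224) and 0.48 (SE 0.05, 1.39-fold, adjusted p 0.00610) over Control. In BT474-Var4 cells the differences were 0.05 (adjusted p 0.561) and 0.20 (adjusted p 0.0580).

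KRT8 probe 3 followed another pattern. It carries the name KRT8 through a noncoding KRT8 transcript, but lies 2277 bases before KRT18 probe 1, on the opposite strand, where KRT8 probes 1 and 2 are 54492 and 50582 bases away. It read 1.92 and 1.91 in Control, 1.96 and 1.86 in BT474-Var1 and 2.14 and 2.27 in BT474-Var4 cells. It was higher in BT474-Var4 cells by 0.29 (SE 0.07, adjusted p 0.0484), near the threshold, and did not differ measurably in BT474-Var1 cells (0.00, SE 0.07, adjusted p 0.981). The BT474-Var4 call was lost in 11 of 15 alternatives, among them quantile normalization. Because of its place close to KRT18, probe 3 is not read here as a measure of KRT8 messenger RNA.

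KRT18 probe 1 read 6.92 and 6.83 in Control, 6.59 and 6.63 in BT474-Var1 and 6.91 and 6.92 in BT474-Var4 cells. KRT18 probe 2 read 8.90 and 8.90, 8.96 and 8.96, and 8.93 and 8.94. Probe 1 was lowest on the BT474-Var1 arrays, at -0.26 against Control (SE 0.06, adjusted p 0.0279), whereas probe 2 gave 0.06 (95% interval -0.06 to 0.18, adjusted p 0.368). No direction can be given for KRT18 as a gene in BT474-Var1 cells, because its 2 probes differ. In BT474-Var4 cells the probes gave 0.04 and 0.03 (adjusted p 0.649 and 0.650).

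**Figure D3:**
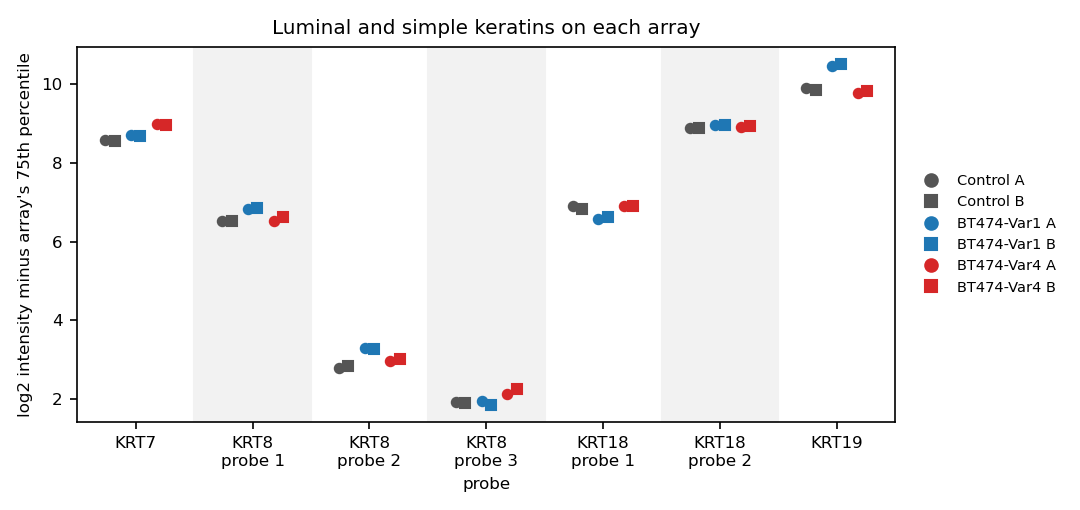
Level of each tested luminal keratin probe on each array (vertical axis, log2 intensity less the array's 75th percentile), with circles for array A and squares for array B of each group. KRT19 and KRT8 probes 1 and 2 were highest in BT474-Var1, KRT7 in BT474-Var4. Heights of different probes are not comparable.

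The basal and activation keratins were dim, apart from KRT15. KRT14, the type I partner of KRT5, was measured by 2 probes. Its probe 2 is shown with that of KRT16, a type I keratin of activated epidermis, because both rose in both populations and the genes are close relatives. Capitals mark the bases that are the same in the best alignment without gaps, 32 of 43 aligned bases (74.4%).
KRT14 probe 2, chr17:39740013-39740072, minus strand: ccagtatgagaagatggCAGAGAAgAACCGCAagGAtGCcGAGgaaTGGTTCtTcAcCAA
KRT16, chr17:39767216-39767364, minus strand: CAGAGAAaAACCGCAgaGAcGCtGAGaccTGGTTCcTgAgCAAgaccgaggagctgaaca

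KRT14 probe 2 read -4.39 and -4.48 in Control, where neither array was well above background, -3.25 and -2.93 in BT474-Var1 and -3.42 and -3.40 in BT474-Var4 cells. Both variants lay above Control with no overlap. With Control raised to the dimmest probe above background on each array where it lay lower, BT474-Var1 cells showed a KRT14 rise of at least 2.43-fold (adjusted p 0.00484), and in the other population at least 1.94-fold (adjusted p 0.0105). The filter kept this probe through the BT474-Var1 and BT474-Var4 arrays alone, so these p-values are not independent of that choice. The BT474-Var4 call was lost when any Control or BT474-Var4 array was left out and with normexp background correction (highest adjusted p over all alternatives 0.231). KRT14 probe 1, at chr17:39742569-39742628, was near background, from -4.24 to -3.50 over the 6 arrays, and gave 0.12 and 0.29 (adjusted p 0.767 and 0.486). The 2 probes therefore do not give the same call.

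KRT16 read -2.46 and -2.32 in Control, -1.45 and -1.49 in BT474-Var1 and -1.86 and -1.97 in BT474-Var4 cells. The groups did not overlap, with BT474-Var1 over BT474-Var4 over Control. KRT16 rose by 0.92 in BT474-Var1 (SE 0.08, 1.90-fold, adjusted p 0.00445). In BT474-Var4 cells the rise was 0.48 (SE 0.08, 1.39-fold, adjusted p 0.0191), which was 1.36-fold below the BT474-Var1 level (adjusted p 0.0133). A second KRT16 probe was above background on no array.

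KRT15, a type I keratin of basal cells and hair follicle stem cells (chr17:39670142-39670201), read 4.53 and 4.45 in Control, 4.65 and 4.69 in BT474-Var1 and 4.87 and 4.89 in BT474-Var4 cells. It was highest in BT474-Var4 cells, by 0.39 over Control (SE 0.06, 1.31-fold, adjusted p 0.0155) and by 0.21 over BT474-Var1 cells (adjusted p 0.0410). The latter differed from Control by 0.18 (adjusted p 0.0727). KRT17, above background in BT474-Var1 cells alone, gave 0.86 there (SE 0.28, adjusted p 0.0730), and KRT6A gave 0.17 in BT474-Var1 and 0.53 in the other population (SE 0.27, adjusted p 0.658 and 0.225).

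Among the suprabasal keratins, BT474-Var4 cells showed changes in opposite directions. KRT4, the type II keratin of the upper layers of mucosa such as the esophagus (chr12:53200511-53200570), read 0.50 and 0.54 in Control, 0.56 and 0.47 in BT474-Var1 and 1.70 and 1.88 in BT474-Var4 cells. Both BT474-Var4 arrays stood clear of the other 4, which were alike. BT474-Var4 cells held 2.42-fold more KRT4 RNA than Control (1.27, SE 0.08, adjusted p 0.00389) and 2.43-fold more than BT474-Var1 cells (adjusted p 0.00177), and BT474-Var1 cells gave -0.01 (adjusted p 0.957). KRT13, the type I partner of KRT4 in mucosa, read -1.07 and -1.09 in Control, -0.97 and -0.96 in BT474-Var1 and -0.73 on both BT474-Var4 arrays. It rose by less than its partner, 0.35 in BT474-Var4 cells (SE 0.05, 1.27-fold, adjusted p 0.0135).

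KRT1, the type II keratin of the upper epidermis (chr12:53068520-53068579), read 0.07 and 0.04 in Control, 0.26 and 0.22 in BT474-Var1 and -2.04 and -1.77 in BT474-Var4 cells. The BT474-Var4 arrays were far below the rest and still above background. KRT1 was 3.89-fold lower in BT474-Var4 than in Control (-1.96, SE 0.10, adjusted p 0.00311; -0.90 with normexp background correction) and 4.42-fold lower than in BT474-Var1 cells (adjusted p 0.00126). KRT10, its type I partner in skin, gave 0.06 in BT474-Var4 cells (95% interval -0.10 to 0.22, adjusted p 0.511) and -0.04 in BT474-Var1 cells (adjusted p 0.640), with 6.30 to 6.46 over all arrays. The fall of KRT1 was thus measured without a call for its partner.

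KRT2, a late epidermal type II keratin, read -2.62 and -2.58 in Control, -1.33 and -1.74 in BT474-Var1 and -2.00 and -1.95 in BT474-Var4 cells. Both variants were above Control, by 1.07 (SE 0.15, 2.10-fold, adjusted p 0.00951) and 0.63 (SE 0.15, 1.54-fold, adjusted p 0.0440). KRT9, of palms and soles, read -0.57 and -0.69 in Control, -0.53 and -0.52 in BT474-Var1 and -0.81 and -0.96 in BT474-Var4 cells. It passed the test between the populations alone, 1.28-fold lower in BT474-Var4 (-0.36, SE 0.08, adjusted p 0.0264). Against Control, KRT3 of the cornea gave -0.04 for BT474-Var1 and -0.06 for BT474-Var4, and KRT78 gave 0.22 and -0.14, none past the threshold.

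Hair shaft keratins were on the arrays in larger number than any other class, and 10 of their 17 genes were tested in these breast cancer cells. KRT81, a type II keratin of the hair cortex that is also known from breast cancer cells, read 7.63 and 7.67 in Control, 7.37 and 7.38 in BT474-Var1 and 7.66 and 7.62 in BT474-Var4 cells. The BT474-Var1 arrays were the lowest, at -0.28 against Control (SE 0.05, adjusted p 0.0182), and the call was lost under quantile normalization. KRT32, a type I keratin of the hair cuticle, rose in both populations, reading -1.25 and -1.36 in Control, -0.57 and -0.44 in BT474-Var1 and -0.75 and -0.65 in BT474-Var4 cells. The differences of KRT32 were 0.80 (SE 0.08, 1.74-fold, adjusted p 0.00552) and 0.61 (SE 0.08, 1.52-fold, adjusted p 0.0131).

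KRT37, a type I keratin of the hair shaft (chr17:39576832-39576891), rose in BT474-Var4 cells. KRT37 read -2.68 and -2.42 in Control, -2.56 on both BT474-Var1 arrays and -1.86 and -1.71 in BT474-Var4 cells. The BT474-Var4 arrays lay above the other 4, by 0.76 over Control (SE 0.11, 1.70-fold, adjusted p 0.0155) and 0.78 over BT474-Var1 cells (SE 0.11, 1.72-fold, adjusted p 0.00844). KRT85, a type II keratin of the early hair shaft, read -0.58 and -0.59 in Control, -0.79 and -0.88 in BT474-Var1 and -0.77 and -0.72 in BT474-Var4 cells. It was lower in BT474-Var1 cells by -0.25 (SE 0.06, adjusted p 0.0343), and the BT474-Var4 value was -0.16 (adjusted p 0.118). The KRT85 call was lost in 11 of 15 alternatives, among them normexp background correction.

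KRT83 shows how far a probe's name can be trusted in this family. The accessions listed for KRT83 probe 2 also cover KRT81, KRT85 and KRT86, and those of probe 1 also KRT86. The sequence of probe 1 is given for this reason, with nothing in capitals.
KRT83 probe 1, chr12:52710677-52710736, minus strand: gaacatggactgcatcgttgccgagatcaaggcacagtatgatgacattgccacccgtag

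KRT83 probe 2 read 2.78 and 2.76 in Control, 3.01 and 3.08 in BT474-Var1 and 3.12 and 3.26 in BT474-Var4 cells. It rose in both populations, by 0.28 (SE 0.07, adjusted p 0.0414) and 0.42 (SE 0.07, adjusted p 0.0211), but which of the 4 genes gave the signal cannot be told apart. KRT83 probe 1 was above background on 4 arrays and gave 0.60 and 1.58 (SE 0.49, adjusted p 0.392 and 0.0831). Of the other hair shaft keratins, KRT31, KRT33A and KRT86 gave between -0.17 and 0.09 against Control in both populations, KRT39 0.05 and -0.39, and KRT35 -0.08 and -0.96 with a large error (SE 0.68), and none passed the test.

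The largest fitted rises in BT474-Var1 cells were of KRT25 and KRT27, type I keratins of the inner root sheath, the layer that molds the growing hair. KRT25 (chr17:38904611-38905541) read -5.42 and -6.52 in Control, -2.07 and -2.84 in BT474-Var1 and -4.13 and -5.59 in BT474-Var4 cells. KRT27 (chr17:38933070-38933129) read -6.45 and -4.46, -2.50 and -2.32, and -5.29 and -5.67. For both genes the BT474-Var1 arrays alone were well above background, which is also how the probes came to be tested.

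As bounds against Control, the rise in BT474-Var1 cells was at least 3.79-fold for KRT25 and at least 3.87-fold for KRT27. The fitted differences were 3.51 (adjusted p 0.0196) and 3.05 (adjusted p 0.0298). Since the filter kept both probes through the BT474-Var1 arrays alone, these p-values are not independent of that choice. Both calls against Control were lost when either BT474-Var1 array was left out, and over all alternatives their highest adjusted p was 0.0840 and 0.110. Against BT474-Var4 cells the bounds were at least 2.66-fold (adjusted p 0.0444) and at least 2.82-fold (adjusted p 0.0253). KRT26, which lies between them on chromosome 17, was above background on all arrays, from -3.33 to -2.84, and gave -0.13 in BT474-Var1 cells (SE 0.14, adjusted p 0.507), and KRT28, the next gene of the group, was above background on none.

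The type II keratins of the same layer moved unequally. KRT71 (chr12:52937904-52937963) read -3.93 and -3.56 in Control, with only Control B above background, -2.53 and -2.44 in BT474-Var1 and -4.50 and -4.11 in BT474-Var4 cells, with neither of the latter above background. KRT71, too, was tested only through the BT474-Var1 arrays, and its fitted difference from Control was 1.26 there (SE 0.19, adjusted p 0.0113). The call was lost without Control A and without either BT474-Var1 array (highest adjusted p over all alternatives 0.0562). As a bound, BT474-Var4 cells were at least 2.67-fold lower than BT474-Var1 cells (adjusted p 0.00404). KRT73, in contrast, read 3.06 and 3.07 in Control, 2.81 and 2.88 in BT474-Var1 and 3.12 and 3.10 in BT474-Var4 cells. It was lowest on the BT474-Var1 arrays (-0.22, SE 0.05, adjusted p 0.0343), a call lost under quantile normalization, and KRT74 gave -0.44 there (SE 0.16, adjusted p 0.108).

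The size of differences in dim keratins depended on the background correction. With normexp correction and an offset of 50, which adds a constant before the logarithm, KRT25 and KRT27 differed by 0.42 and 0.43 from Control in BT474-Var1 cells, KRT71 by 0.25 and KRT14 probe 2 by 0.22. In BT474-Var4 cells KRT1 then differed by -0.90, KRT24 by -0.21, KRT37 by 0.19 and KRT14 probe 2 by 0.07, the last no longer past the test. No keratin then reached 2-fold in BT474-Var1 cells, and 2 did in BT474-Var4 cells. Far above background, KRT80 kept 1.23 in BT474-Var4 cells and KRT19 kept 0.57 in BT474-Var1 cells.

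Of the keratins outside these classes, KRT80, a type II keratin found near desmosomes (chr12:52563485-52563544), read 3.56 and 3.58 in Control, 3.45 and 3.54 in BT474-Var1 and 4.83 and 4.80 in BT474-Var4 cells. Both BT474-Var4 arrays were above all others, 2.37-fold over Control (1.24, SE 0.06, adjusted p 0.00286) and 2.50-fold over BT474-Var1 cells (adjusted p 0.00120). BT474-Var1 cells gave -0.08 against Control (adjusted p 0.364). KRT24, a type I keratin (chr17:38854494-38854553), read -2.96 and -2.57 in Control, -2.95 and -2.49 in BT474-Var1 and -3.89 and -3.71 in BT474-Var4 cells, where only array A was well above background. Its fitted difference in BT474-Var4 cells was -1.04 from Control (SE 0.22, adjusted p 0.0342) and -1.08 from BT474-Var1 cells (adjusted p 0.0197). Array B lay below the dimmest probe above background on that array (-3.6), so the size is uncertain, and the call against Control was lost when any Control or BT474-Var4 array was left out (highest adjusted p over all alternatives 0.129). KRT23, another type I keratin, read -2.72 and -2.99 in Control, -2.29 and -1.97 in BT474-Var1 and -2.17 and -1.85 in BT474-Var4 cells. It was higher in both by 0.73 and 0.85 (SE 0.18, adjusted p 0.0391 and 0.0357), with its other probe above background on no array. These KRT23 calls were lost in 11 (BT474-Var1) and 10 (BT474-Var4) of 15 alternatives, among them one-way analysis of variance.

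**Figure D4:**
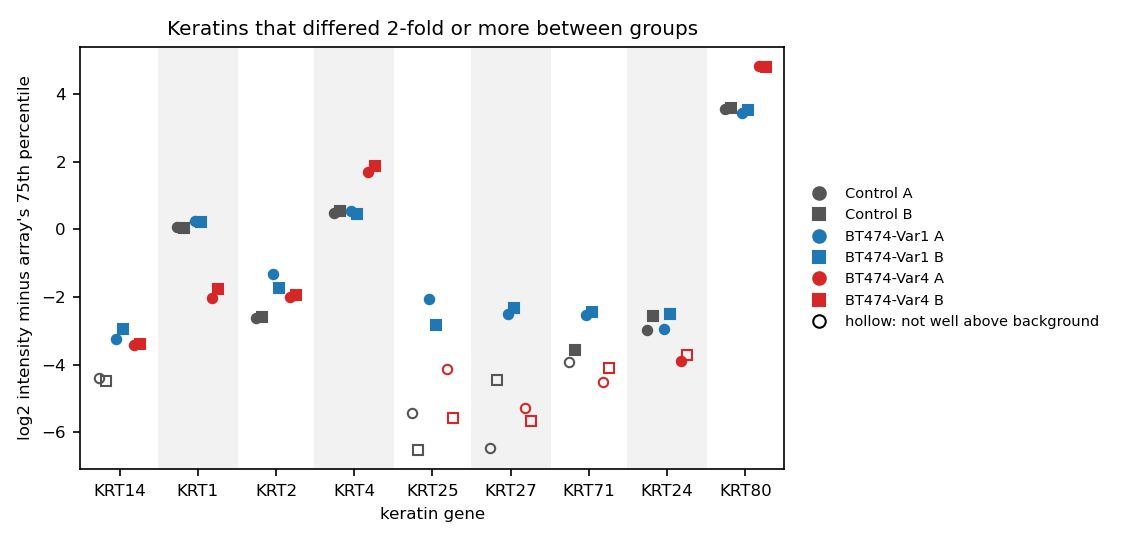
Levels on each array (log2 intensity less the array's 75th percentile) of the 9 keratins that passed the test at a fitted 2-fold or more in a comparison, KRT14 by its probe 2. Hollow points were not well above background. KRT4 and KRT80 were raised and KRT1 and KRT24 lowered in BT474-Var4, and KRT25, KRT27 and KRT71 were raised in BT474-Var1. Heights of different keratins are not comparable.

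Keratin genes sit in 2 clusters, and their place follows their type. On the array 28 genes were on chromosome 17, all type I, and 27 on chromosome 12, namely 26 of type II and KRT18. In BT474-Var1 cells 7 of 20 tested probes on chromosome 17 rose and 0 fell, and 5 of 21 on chromosome 12 rose and 4 fell. In BT474-Var4 cells 7 rose and 1 fell on chromosome 17, and 6 rose and 1 fell on chromosome 12. KRT25, KRT27 and KRT14 probe 2 on chromosome 17, and KRT71 on chromosome 12, were tested only through groups where they were high. These counts are therefore not independent of the filter, and no pattern by chromosome is drawn from them. Over all tested probes 14.1% rose and 20.3% fell in BT474-Var1 cells, and 9.87% and 14.3% in BT474-Var4 cells. KRT26 lay between KRT25 and KRT27 without their rise in BT474-Var1 cells, while KRT80 and KRT7, the first of the tested probes along chromosome 12, both rose in BT474-Var4 cells.

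**Figure D5:**
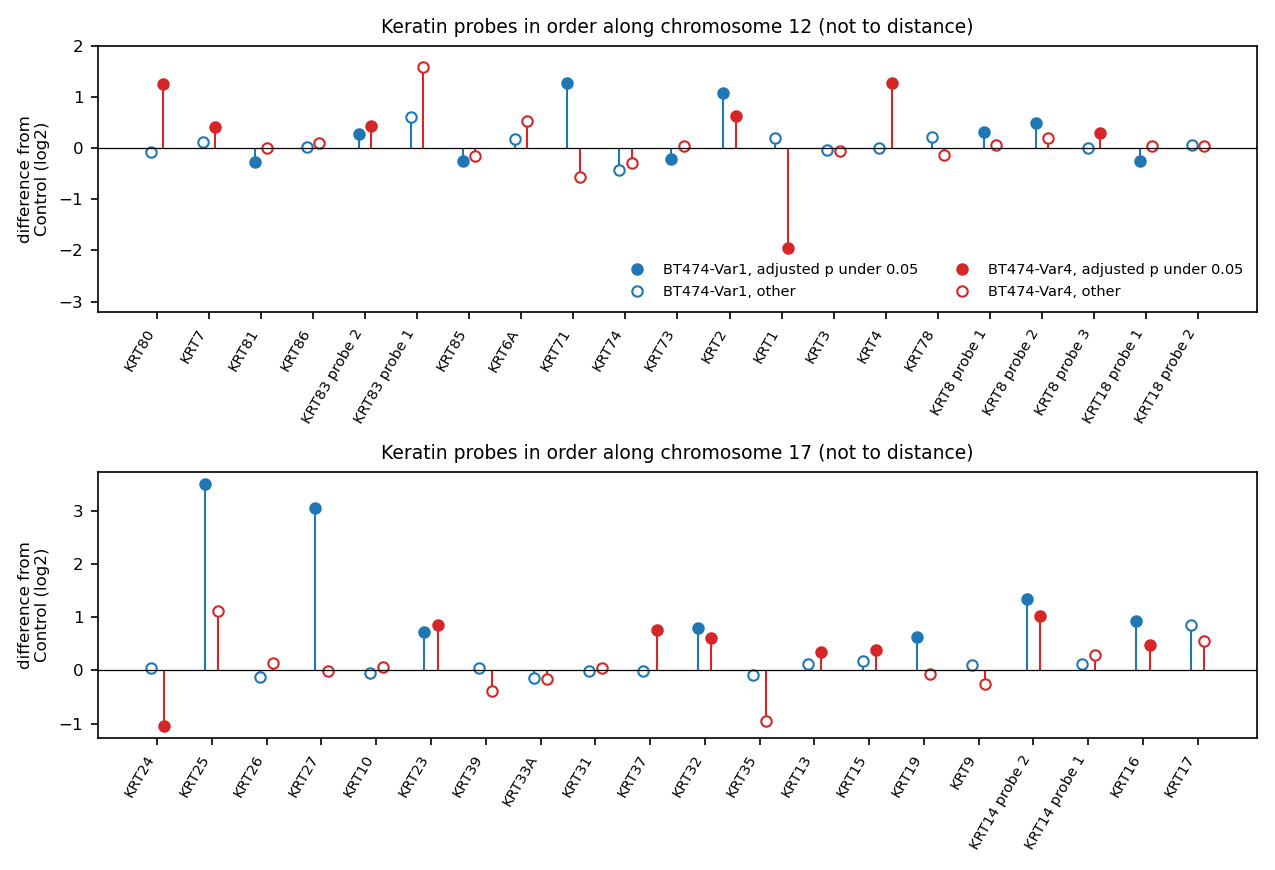
Difference from Control (vertical axis, log2) of each tested keratin probe in BT474-Var1 (blue) and BT474-Var4 cells (red), in the order of the probes along chromosomes 12 and 17 and not to distance. Filled points passed the test at an adjusted p under 0.05. KRT25 and KRT27 rise beside KRT26, which did not pass the test, in BT474-Var1, and KRT1 and KRT4 go in opposite directions in BT474-Var4.

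RefSeq promoter windows (GRCh38.p14) were given for 34 of the 55 genes, KRT4 and KRT37 among them. The 250 bases before the start are shown for these 2, which rose in BT474-Var4 but not in BT474-Var1 cells. Capitals mark TATAA, the core of the TATA box.
KRT4, chr12:52814117-52814366, minus strand: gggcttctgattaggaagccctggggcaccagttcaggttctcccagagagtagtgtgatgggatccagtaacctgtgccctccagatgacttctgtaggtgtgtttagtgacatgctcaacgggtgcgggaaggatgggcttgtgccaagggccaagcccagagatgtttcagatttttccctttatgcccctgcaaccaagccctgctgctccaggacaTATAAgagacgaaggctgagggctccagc
KRT37, chr17:41424586-41424835, minus strand: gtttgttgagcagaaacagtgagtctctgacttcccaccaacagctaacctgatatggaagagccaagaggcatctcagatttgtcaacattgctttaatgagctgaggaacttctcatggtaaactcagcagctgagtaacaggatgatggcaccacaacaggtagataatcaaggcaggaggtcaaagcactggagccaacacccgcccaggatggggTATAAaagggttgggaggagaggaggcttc

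On either strand of such windows, TATAA was found for 25 of the 34 keratin genes (73.5%) and in 18.9% of all 35116 promoter windows. A keratin gene was counted if any of its windows matched, whereas the other share is of single windows. No window was given for KRT1, KRT7, KRT14 to KRT19 and KRT80, so the keratin shares leave out most luminal keratins. AGGTCA, a half-site of nuclear receptors, was found for KRT24, KRT37 and KRT38 (3 of 34 genes, 8.82%, against 12.1% of all windows), and TGANTCA, the letters of the AP-1 site, for 0 of 34 (6.57% of all windows). Both TATAA motifs shown lie close before the start. A match describes the letters in the window and no more.

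A list of partner genes held 44 tested genes (62 probes). They anchor or bind keratin filaments, build the cornified envelope or regulate keratins, and 9 are genes of other intermediate filaments. Of the 62 probes, 15 rose and 19 fell in BT474-Var1 cells (54.8%, against 34.4% over all tested probes), 19 rose and 6 fell in BT474-Var4 cells (40.3%, against 24.2%), and between the populations BT474-Var4 had 24 higher and 14 lower (61.3%, against 41.2%). Counted by genes, each by its brightest tested probe, 9 rose and 16 fell in BT474-Var1 cells and 12 rose and 6 fell in BT474-Var4 cells. Of the 9 desmosomal genes, whose junctions hold keratin filaments, 3 rose and 3 fell in BT474-Var1 cells and 4 rose and 1 fell in BT474-Var4 cells. Of the 5 hemidesmosomal genes, 1 rose and 3 fell in BT474-Var1 cells, and 2 rose and 0 fell in BT474-Var4 cells. Of the 9 genes of other intermediate filaments, 1 rose and 4 fell in BT474-Var1 cells, and 1 rose and 3 fell in BT474-Var4 cells. Over all 62 probes 34 passed in BT474-Var1 cells (21 without Control A, 20 without Control B) and 25 in BT474-Var4 cells (5 without Control A, 6 without Control B, 13 without BT474-Var4 A, 11 without BT474-Var4 B).

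At 2-fold or more, 4 of the 62 partner probes passed in BT474-Var1 cells (6.45%, against 3.94% over the array). In BT474-Var4 cells 1 did (1.61%, against 3.17%), and between the populations 9 did (14.5%, against 6.86%). Which partners these were differed between the populations. ITGA6, the integrin alpha 6 chain of hemidesmosomes, read 1.17 and 1.24 in Control, 0.22 and 0.16 in BT474-Var1 and 1.19 and 1.17 in BT474-Var4 cells, 2.02-fold lower in BT474-Var1 than in Control (adjusted p 0.00305). VIM, vimentin, the intermediate filament of mesenchymal cells, was lower in BT474-Var1 cells too, reading 4.14 and 4.08 in Control, 3.07 and 3.09 in BT474-Var1 and 4.45 and 4.28 in BT474-Var4 cells (2.04-fold, adjusted p 0.00396). SPRR3, a small proline-rich envelope protein, was raised there 2.07-fold (adjusted p 0.00359), and SPRR2A gave a fitted 1.69 (adjusted p 0.0344) by a probe that also lists SPRR2D and was above background on 1 of the Control arrays, so its size is uncertain.

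SYNM, synemin, which joins other intermediate filaments, was the partner at 2-fold in BT474-Var4 cells, reading -0.67 and -0.81 in Control, -0.96 and -0.83 in BT474-Var1 and 0.61 and 0.48 in BT474-Var4 cells (2.44-fold over Control, adjusted p 0.00441). Between the populations, SYNM, VIM, HOXC13, GRHL3 and PPL were 2.71-fold, 2.44-fold, 2.41-fold, 2.21-fold and 2.10-fold higher in BT474-Var4 cells. SPRR3 was 2.04-fold lower. SPRR2A and TGM3, a transglutaminase of the envelope, had fitted differences of -1.54 and -1.17 (adjusted p 0.0381 and 0.0171), but BT474-Var4 B was below background for both, so their size is uncertain. A dim DST probe was at least 1.72-fold lower (adjusted p 0.0408), while a brighter DST probe was higher by 0.77 (adjusted p 0.00217). HOXC13, a regulator of hair keratin genes, read 0.90 and 0.96 in Control, 0.55 on both BT474-Var1 arrays and 1.82 on both BT474-Var4 arrays, and rose 1.85-fold in BT474-Var4 cells against Control (adjusted p 0.00333).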

How the data were processed

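The authors quantified the spots of each one-color array with Agilent Feature Extraction 11.5.1.1 (submitters' processing notes) and shifted each array to its 75th percentile. The deposited files hold each spot's intensity, background-subtracted and detrended, and the shifted log2 values of the authors are in a deposited table. Levels here are log2 of the processed intensity after taking off, per array, the 75th percentile over probes that are not controls. Outlier spots were left out, and spots of a probe averaged. Replicate arrays correlated at 0.993 to 0.996, with an SD of 0.20 to 0.25 (log2). Probes that 1 group or more had above background on each of its arrays were fitted with limma 3.58.1 in R 4.3.3, with 1 mean per group over 6 arrays and Benjamini-Hochberg adjustment over all 31858. A gene's tested probe with the highest mean stood for it in counts of genes. Each keratin with a tested probe was named, and partners at 2-fold. The number of arrays limits the precision. The fit was tested on simulated data. Alternatives changed the background correction, normalization, probe filter, variance model and arrays used. The keratins and lists were chosen with earlier results of these data known. Classes follow textbook knowledge. Header and methods give different design numbers of the array, and the probes are on hg19. The sequence of 1 KRT83 probe is not reported here.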

Additional observations from a re-analysis of the deposited data

How the results depend on the processing

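Counts of keratin probes past the test were 16, 15 and 20 (BT474-Var1 against Control, BT474-Var4 against Control, BT474-Var4 against BT474-Var1). With no filter on dim probes they were 5, 3 and 8, and with 2-fold added 5, 5 and 7. With 1 array left out they ranged from 6 to 11, 3 to 13 and 8 to 15. There the lone array of a group is assumed to vary like the others. Partner probes, 34, 25 and 38, came to 11, 3 and 23 with no filter and ranged from 20 to 31, 5 to 18 and 28 to 38 with 1 array left out. Normexp correction, quantile normalization, the filter on all 6 arrays, the deposited table, trend and robust estimation, the methods' one-way analysis of variance, the 2 groups alone and genes in place of probes kept each count they apply to within 1.5 times. The letters A and B do not pair arrays of different groups (the correlation of their differences was between -0.0154 and 0.0452). With the replicate block the keratin counts were 12, 14 and 18 and the partner counts 32, 20 and 36. Of the 16, 15 and 20 calls, 12, 12 and 14 were lost in at least 1 alternative, and 8, 4 and 12 other probes passed in at least 1. No called keratin changed sign. Median differences of all probes moved by less than 0.1 (log2) between scalings.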
